A study of Mus musculus with 76 samples.

Results

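Imprinted genes are expressed mainly or only from the chromosome inherited from one parent, and the 35 described here were taken by name from the 56923 genes counted in developing mouse diencephalon. Their annotated genes number 28 that code for protein and 7 that give long noncoding RNAs, they fall into 18 domains, and 14 of them lie on chromosome 7. In germ cells, differential DNA methylation is laid down at imprinting control regions, and after fertilization it is kept on one parental copy by KRAB zinc finger proteins such as ZFP57 and by the maintenance methyltransferase. The silent and the active copy of a control region then carry opposite histone marks, and at the Igf2 and H19 locus CTCF binds only the unmethylated maternal copy. Many imprinted genes act in fetal growth and in neurons of the hypothalamus and thalamus, and some, such as Ube3a and Grb10, are imprinted in a different way in neurons than in other cells.

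The tissue came from C57BL/6J mice and from a line made in them in which a human enhancer region, hs754, stood in place of its mouse counterpart on chromosome 13, which holds none of the 35 genes. Homozygous hs754-humanized embryos and wild type embryos were compared at embryonic days E11.5 and E17.5, and each replicate was a pool of 6 embryos at E11.5 or of 3 at E17.5 from 1 litter, so that litter, dissection and replicate cannot be told apart. PolyA-selected RNA was sequenced in 4 replicates of each genotype and stage, 16 samples in all, with 16414369 to 24272569 counts on genes per sample. Chromatin immunoprecipitation (ChIP-seq) for H3K27ac, H3K4me3 and H3K27me3 gave 2 peak lists for each genotype at the early stage and 3 at the late one, and with CTCF, profiled only late, there are 36 lists. RNA levels are given as CPM, the counts of a gene scaled to a common total of counts on genes and normalized between samples, from the count column that takes no account of strand. No value here is resolved by allele, so neither expression nor marks can be assigned to a parental copy, and in bulk tissue fewer cells of a type and less RNA per cell cannot be told apart.

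Markers of the labelled tissue were present in every sample: the 12 diencephalon genes summed to 1750 to 2348 CPM in wild type at E11.5 and 1522 to 1808 CPM at E17.5, with Tcf7l2, a transcription factor of thalamus and habenula, the most abundant. Tcf7l2 alone held 877 to 1329 CPM at E11.5 and 1019 to 1359 CPM at E17.5. The similar sums hide differences of single genes. In wild type Irx3, Otx2 and Barhl2 had log2 fold changes of −3.21, −3.09 and −2.96, while Lhx9 alone was called higher (1.02). The 8 neuronal markers summed to 1867 to 2360 CPM at E11.5 and 6053 to 6943 CPM at E17.5 in wild type, and the 8 progenitor markers to 4555 to 5058 and 581 to 849.9 CPM. In the edgeR stage test in wild type, 7 of 8 neuronal markers were higher at E17.5, none lower, and 8 of 8 progenitor markers were lower. Of the 10 genes of the astrocyte and oligodendrocyte lineage, 9 were higher. Other tissues that a dissection can carry along were represented by shorter lists. In wild type the 9 endothelial and mural genes summed to 329 to 409 CPM at E11.5 and 396 to 551 CPM at E17.5, the 6 choroid plexus genes to 291 to 344 and 187 to 348 CPM, and the 4 telencephalon genes to 40.8 to 59.1 and 46.2 to 85.4 CPM. The choroid plexus sums at E11.5 were mostly Otx2 (274 to 333 CPM), also in the diencephalon list, which fell by 3.09 in wild type, while Ttr, Kcnj13 and Kl rose by 9.18, 2.77 and 1.43 (edgeR adjusted p = 4.89e-07, 1.16e-06, 0.000266 and 0.00612), so that the sums hide a rise of choroid plexus markers. Sums in wild type samples of both stages lay between 0.324 and 13.2 CPM for the 5 eye genes and the 5 midbrain and hindbrain genes, between 0.366 and 3.77 CPM for 4 skeletal muscle genes, and between 4.13 and 17.2 CPM for 5 surface ectoderm genes.

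One library stood apart from the others of its group, replicate 1 of wild type at E17.5. Its meninges and mesenchyme markers summed to 792 CPM against 480.3 to 542 CPM in the other 3 replicates, its 8 erythroid markers to 986 against 234 to 444 CPM, its 6 microglia markers to 71.9 against 33.6 to 36.2 CPM, and its progenitor markers to 849.9 against 581 to 659.8 CPM. Its endothelial and mural genes (551 against 396 to 451.5 CPM) and telencephalon genes (85.4 against 46.2 to 50.9 CPM) were also higher. The astrocyte and oligodendrocyte lineage was lower (671 against 909 to 1192 CPM). The neuronal gene Map2 was lower too (1074 against 2224 to 2887 CPM), though the neuronal sum was not (6943 against 6053 to 6936 CPM). Its normalization factor, 0.8865, was the lowest of the 16 samples. Among the imprinted genes, Meg3 stood at 1353 CPM in that library and at 5765, 4786 and 5216 CPM in the others, while Nnat stood at 3891 and at 1291, 1579 and 1362 CPM. Results in wild type at E17.5 are therefore given with this library and, where the value or the call moved, without it. What sets the library apart was not tested.

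The first comparison asked how the imprinted genes differed between E17.5 and E11.5 within wild type tissue. More of them were higher at the later stage than lower: of the 34 members with enough counts for the edgeR quasi-likelihood test, 17 were higher at E17.5 at an adjusted p under 0.05, where 29% of the 18583 genes tested were higher, and 8 were lower, where 26.7% of genes were lower. Among the 17, Rasgrf1 passed the count filter only through E17.5 and so had to differ, as it did in humanized tissue. The median log2 fold change over the 34 members tested was 0.91, and over all genes tested it was −0.01. Without replicate 1 of wild type at E17.5, 20 members were higher and 9 lower, where 36.01% of the 19351 genes tested were higher and 36.3% lower. The genes added were Dlk1 (−1.04), Mirg (0.78), Kcnq1ot1 (0.63) and Impact (1.27; log2 fold changes without that library), and of these Dlk1, Mirg and Impact also passed with all 16 samples in one fit. In humanized tissue 21 of 34 members were higher, where 38.2% of the 18781 genes tested were higher, and 8 were lower, where 39.5% of genes were lower, a share of members below that of all genes; the median over members was 1.05. Summed over the 35 genes, CPM in wild type came to 6602, 7072, 6269 and 6698 in the 4 replicates at E11.5 and to 11000, 14330, 13100 and 13710 at E17.5. Over all samples together Meg3 was the most abundant, a rank that rests on E17.5. In wild type at E11.5 it stood at 323 to 418 CPM, below Grb10 at 1191 to 1507 CPM.

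**Figure D1:**
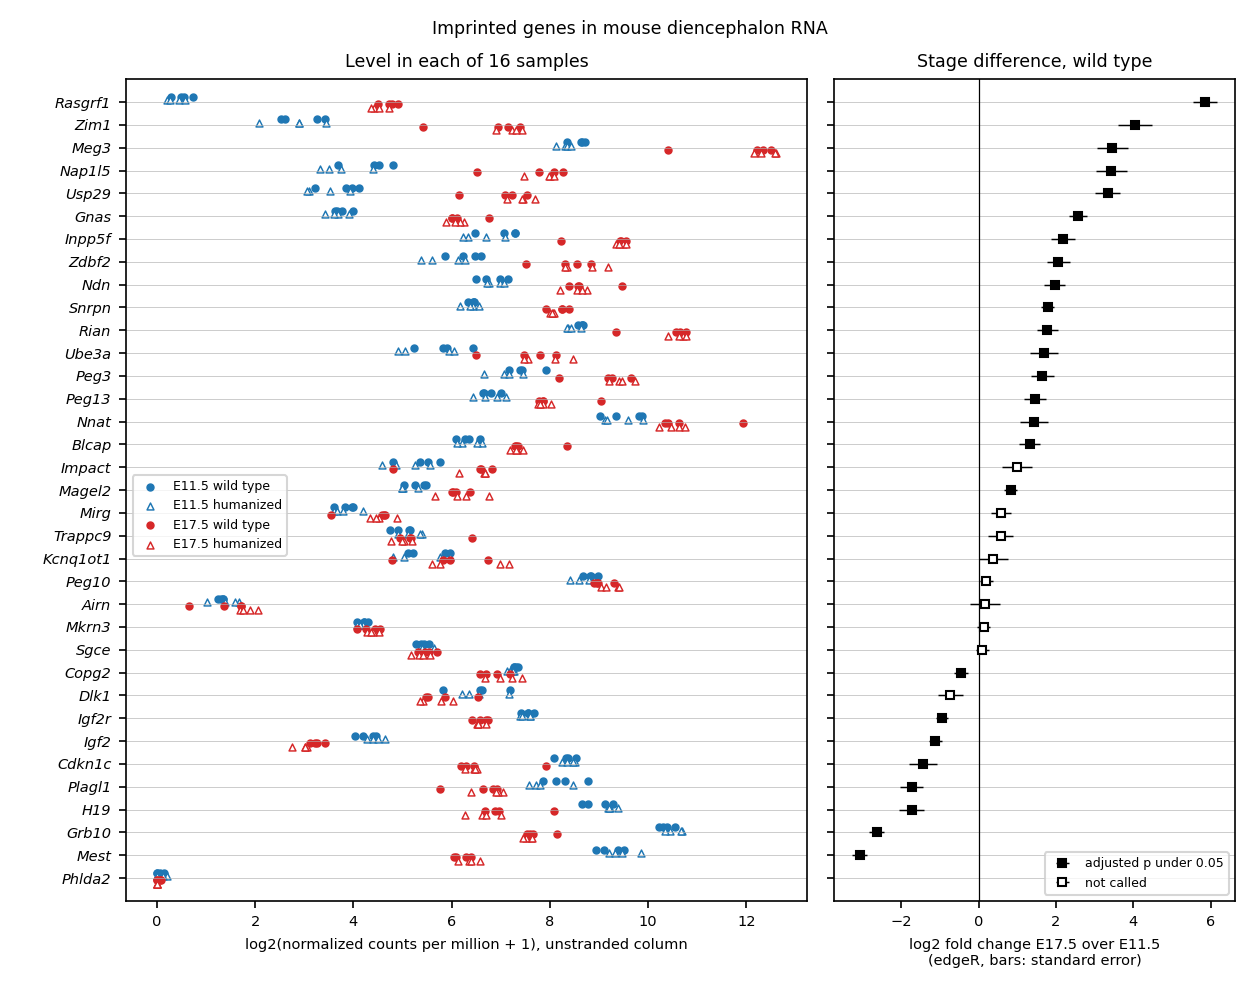
Level of each imprinted gene in each of 16 RNA samples as log2 of normalized CPM plus 1 (left; circles wild type, triangles humanized, blue E11.5, red E17.5) and the log2 fold change of E17.5 over E11.5 in wild type with its standard error from edgeR (right; filled squares passed at an adjusted p under 0.05, open squares did not). Of the 34 genes tested, 17 have a filled square right of 0 and 8 left of it, from Rasgrf1 at 5.85 to Mest at −3.07, and Phlda2 was not tested. Rasgrf1 passed the count filter only through E17.5 and so had to differ.

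Within the domain of Igf2 and H19 on chromosome 7, both genes fell between the stages. H19 (chr7:142129262-142133957, mm39), a long noncoding RNA expressed from the maternal copy, stood at 439.9, 626, 402 and 553 CPM in the 4 wild type replicates at E11.5 and at 269, 118, 124 and 101 CPM at E17.5. The humanized replicates stood at 599, 583, 666 and 589.7 CPM and then at 97.9, 102, 128 and 76.6 CPM. The stages did not overlap in either genotype, and the E17.5 value nearest to E11.5 was that of wild type replicate 1. H19 fell by 1.73 on the log2 scale in wild type (standard error 0.31, edgeR adjusted p = 0.00085; −2.17 without replicate 1) and by 2.601 in humanized tissue (standard error 0.15, edgeR adjusted p = 1.84e-08). Igf2 (chr7:142204503-142220694), the paternally expressed fetal growth factor, had far fewer reads, with 17.4, 21.1, 15.5 and 20.1 CPM in wild type at E11.5 and 9.78, 8.32, 8.56 and 7.71 CPM at E17.5. Humanized samples held 18.4, 20.1, 24.1 and 21.8 CPM of Igf2 at E11.5 and 5.71, 7.28, 7.03 and 7.13 CPM at E17.5, again without overlap between the stages. Its stage difference was −1.12 ± 0.18 in wild type and −1.65 ± 0.14 in humanized tissue (log2 fold change ± standard error, as in the rest of the text; edgeR adjusted p = 0.00037 and 5.83e-07).

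Both genes are also strongly expressed in mesenchyme, and the levels of the 12 meninges and mesenchyme markers are given beside them. All 12 were detected, Col3a1 was the most abundant, and none was at 0 in all samples. The markers summed to 1726, 2111, 1585 and 1872 CPM in wild type and 1964, 1986, 1929 and 1773 CPM in humanized tissue at E11.5. At E17.5 the sums were 792, 542, 525 and 480.3 CPM in wild type and 409, 483, 535 and 399 CPM in humanized tissue, and in wild type 9 of the 12 fell between the stages and 2 rose. Over the 8 samples of E11.5, H19 and the marker sum had a Pearson r of 0.849 (exact permutation p = 0.0122, 0.0254 after Benjamini-Hochberg adjustment over the 6 relations computed and 0.0325 over the 3 of E11.5), a Spearman rho of 0.714 (exact permutation p = 0.0576, adjusted 0.173) and r = 0.698 without the 2 samples farthest from the median marker level. In wild type H19 and the marker sum had the same order over the 4 samples, while in humanized tissue the highest H19 level (666 CPM) stood at a sum of 1929 CPM, below the sums of 1964 and 1986 CPM. For Igf2 at E11.5 neither coefficient passed (r = 0.642, exact permutation p = 0.0937, adjusted 0.0937; rho = 0.429, exact permutation p = 0.299, adjusted 0.299), and r was 0.264 without the 2 farthest samples. These tests were two-sided. At E17.5 samples of the same number in the 2 genotypes were treated as paired, though the labels state no pairing. Their deviations from the group means correlated at 0.572, 0.635, 0.11 and 0.268 for replicates 1 to 4, so weakly for some. So treated they make 4 independent pairs, too few to test a relation, and the 3 coefficients computed there are not given. The part that mesenchymal cells have in the stage difference of H19 and Igf2 was not tested.

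The Dlk1 and Meg3 domain on chromosome 12 held genes with differences of opposite sign. Meg3 (chr12:109506877-109538165), a maternally expressed long noncoding RNA, was at 398, 323, 418 and 403 CPM in wild type at E11.5 and at 1353, 5765, 4786 and 5216 CPM at E17.5. In humanized replicates Meg3 was at 316, 324, 278 and 346 CPM and then at 4555, 6243, 5037 and 6133 CPM. Replicate 1 of wild type had the lowest E17.5 level, still above all E11.5 samples. Meg3 rose by 3.46 ± 0.40 in wild type and by 4.11 ± 0.15 in humanized tissue (log2, edgeR adjusted p = 3.92e-05 and 8.82e-10). Rian, the host RNA of a cluster of box C/D small nucleolar RNAs, was at 404, 406, 402 and 382 CPM in wild type and 396, 329, 326 and 346 CPM in humanized tissue at E11.5. Its E17.5 levels were 653, 1511, 1597 and 1759 CPM in wild type and 1365, 1685, 1584 and 1737 CPM in humanized tissue. Rian thus did not overlap between stages, and it rose by 1.78 ± 0.28 in wild type and 2.18 ± 0.12 in humanized tissue (edgeR adjusted p = 0.000318 and 1.38e-08). Mirg, which hosts a microRNA cluster, ranged from 11.2 to 15.01 CPM at E11.5 and from 10.6 to 24.1 CPM at E17.5 in wild type, and only replicate 1 of E17.5 did not exceed the E11.5 range. Its log2 fold change of 0.57 did not pass in wild type, while that of 0.77 in humanized tissue did (edgeR adjusted p = 0.0827 and 0.0014).

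Dlk1, a paternally expressed transmembrane ligand related to those of Notch, was the one gene of this domain with a negative difference. Its wild type levels were 97.8, 145, 55.4 and 94.2 CPM at E11.5 and 92.5, 44.9, 56.97 and 43.8 CPM at E17.5, and they overlapped, with replicates 1 and 3 of E17.5 above the lowest E11.5 value. Humanized samples held 142, 81.3, 92.8 and 73.1 CPM and 41.8, 39.8, 64.2 and 54.2 CPM, without overlap. The difference of −0.73 ± 0.32 in wild type did not pass (edgeR adjusted p = 0.0723), and without replicate 1 it was −1.04 and passed (edgeR adjusted p = 0.00265), as it did without a count filter (−0.74) and without E11.5 replicate 3 (−0.94). Without single replicates the difference ran from −1.04 to −0.48. In humanized tissue Dlk1 fell by 0.97 (edgeR adjusted p = 0.000987). The interaction between stage and genotype did not pass for Dlk1 or Mirg (edgeR adjusted p = 0.75 and 0.742). With the meninges and mesenchyme sum, Dlk1 had r = 0.785 at E11.5 (exact permutation p = 0.0217, adjusted 0.0325; rho = 0.571, exact permutation p = 0.151, adjusted 0.181, and 0.227 over the 3 of E11.5), which rests on the 2 samples farthest from the median, since r was 0.330 without them.

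The Kcnq1ot1 domain, on chromosome 7 near H19, is silenced in cis on the paternal copy by Kcnq1ot1, a long RNA antisense to Kcnq1. Cdkn1c (chr7:143012069-143014806), its maternally expressed inhibitor of cyclin-dependent kinases, was at 328, 369, 271 and 319.6 CPM in wild type at E11.5 and at 243, 77.7, 86.3 and 72.5 CPM at E17.5. In humanized tissue Cdkn1c stood at 362, 353, 305 and 326 CPM at E11.5 and 86.7, 90.1, 88.4 and 76.3 CPM at E17.5. The stages were separate, and wild type replicate 1 lay nearest to the E11.5 samples. Cdkn1c fell by 1.43 with that library (standard error 0.37, edgeR adjusted p = 0.00743), by 2.05 without it and by 1.99 in humanized tissue (edgeR adjusted p = 1.18e-08). Kcnq1ot1 ranged from 33.7 to 61.7 CPM at E11.5 and from 26.4 to 105 CPM at E17.5 in wild type, with overlap, and its difference of 0.38 ± 0.37 did not pass (edgeR adjusted p = 0.409). Without single replicates that difference ran from 0.045 to 0.63, the highest without E17.5 replicate 1. In humanized tissue the difference was 1.08 ± 0.37 (edgeR adjusted p = 0.0191), a call that was lost without E11.5 replicate 2 (0.92), E17.5 replicate 2 (0.80) or E17.5 replicate 4 (0.91), and the interaction did not pass (edgeR adjusted p = 0.515). Phlda2, which limits growth of the placenta, was below the count filter: its highest value was 0.106 CPM in wild type and 0.146 CPM in humanized tissue at E11.5, and 10 of the 16 samples held no read of it.

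All 3 members of the Peg3 domain rose in both genotypes. Peg3, a paternally expressed zinc finger protein, stood at 168, 142, 242 and 172 CPM in wild type at E11.5 and at 290.1, 804, 581 and 618 CPM at E17.5. Humanized replicates had 101, 132, 143 and 175 CPM of Peg3 at E11.5 and 679, 852, 587 and 708 CPM at E17.5. No E17.5 sample fell within the E11.5 range, and wild type replicate 1 was again the closest. The rise of Peg3 was 1.65 ± 0.30 in wild type and 2.34 ± 0.19 in humanized tissue (edgeR adjusted p = 0.000937 and 2.44e-07). Usp29, a ubiquitin-specific protease transcribed away from the Peg3 promoter, had 14.7, 8.33, 16.2 and 13.4 CPM in wild type and 7.54, 10.4, 7.29 and 14.2 CPM in humanized tissue at E11.5. At E17.5 Usp29 had 69.7, 185, 134 and 149 CPM in wild type and 173, 208, 139 and 173 CPM in humanized tissue, all above E11.5. Zim1, a maternally expressed zinc finger gene, was at 5.13, 4.77, 9.76 and 8.64 CPM in wild type and 3.21, 6.41, 6.42 and 9.88 CPM in humanized tissue at E11.5, no more than 9.88 CPM in any sample. Its E17.5 levels of 41.9, 166, 123 and 141 CPM in wild type and 149.8, 173, 118 and 157 CPM in humanized tissue all exceeded that. Usp29 rose by 3.34 ± 0.33 and Zim1 by 4.04 ± 0.45 in wild type (edgeR adjusted p = 1.47e-05 and 2.82e-05), and by 4.11 and 4.502 in humanized tissue (edgeR adjusted p = 1.76e-08 and 4.38e-08).

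The Snrpn and Ube3a domain, on central chromosome 7, corresponds to the human region of Prader-Willi and Angelman syndromes. Snrpn, a paternally expressed spliceosomal protein of neurons, stood at 87.4, 87.04, 85.5 and 79.8 CPM in wild type at E11.5 and at 335, 241, 302 and 302 CPM at E17.5. Its humanized levels were 85.8, 92.7, 71.2 and 82.4 CPM and 266, 257, 271 and 262 CPM. The stages of Snrpn did not overlap, and it rose by 1.78 ± 0.16 in wild type and 1.66 ± 0.11 in humanized tissue (edgeR adjusted p = 8.02e-06 and 4.46e-08). Ndn, the MAGE protein necdin of postmitotic neurons, was at 141, 126, 89.6 and 103 CPM and then at 706, 334, 385 and 381 CPM in wild type. Humanized tissue had 125, 133, 108 and 105 CPM of Ndn at E11.5 and 373, 295, 433 and 404 CPM at E17.5. Replicate 1 of wild type was the highest of all 16 samples for Ndn, and the rise of 1.97 ± 0.27 in wild type was 1.65 without it and 1.66 in humanized tissue (edgeR adjusted p = 0.000119, 9.69e-07 and 2.44e-07). Ube3a, the ubiquitin ligase whose maternal copy alone is active in neurons, was at 55.5, 36.4, 85.8 and 58.9 CPM in wild type at E11.5 and at 89.6, 278, 178 and 223 CPM at E17.5. In humanized tissue it was at 29.1, 32.02, 60.4 and 65.2 CPM and 188, 353, 178 and 275 CPM, and no E17.5 sample reached down to the E11.5 range of its genotype. Ube3a rose by 1.68 ± 0.36 in wild type and 2.395 ± 0.31 in humanized tissue (edgeR adjusted p = 0.00247 and 1.71e-05). Magel2, a MAGE protein, ranged from 31.6 to 43.6 CPM at E11.5 and from 63.2 to 82.4 CPM at E17.5 in wild type and rose by 0.83 ± 0.17 (edgeR adjusted p = 0.00199). Mkrn3, a makorin that restrains the onset of puberty, ranged from 15.9 to 18.7 CPM and from 15.9 to 22.2 CPM, and did not pass in wild type (edgeR adjusted p = 0.538) or humanized tissue (0.26 ± 0.12, edgeR adjusted p = 0.0536). In humanized tissue Mkrn3 did pass with DESeq2 (0.302, adjusted p = 0.0443), in the stranded column (0.31, edgeR adjusted p = 0.0246), with DESeq2 size factors (0.34) and without E17.5 replicate 3 (0.305).

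Nnat, a small membrane protein of neurons called neuronatin, lies inside an intron of Blcap, and both rose. In wild type Nnat (chr2:157401879-157404573) had 940.2, 898, 520.3 and 652 CPM at E11.5 and 3891, 1291, 1579 and 1362 CPM at E17.5. Among humanized samples it had 949, 775, 556 and 571 CPM at E11.5 and 1577, 1189, 1736 and 1416 CPM at E17.5. The stages did not overlap, and wild type replicate 1 held more than 2 times the level of any other E17.5 sample. Nnat rose by 1.43 ± 0.37 in wild type with that library (edgeR adjusted p = 0.00708), by 0.88 without it (edgeR adjusted p = 0.000934) and by 1.04 ± 0.18 in humanized tissue (edgeR adjusted p = 0.000152). Blcap, a widely expressed gene with isoforms imprinted in brain, had 81.4, 94.6, 66.6 and 76.1 CPM in wild type and 96.9, 90.6, 73.4 and 68.3 CPM in humanized tissue at E11.5. It had 327, 157, 162 and 154 CPM in wild type and 175, 146, 161 and 157 CPM in humanized tissue at E17.5, and replicate 1 of wild type was again the highest. Blcap rose by 1.32 ± 0.27 (0.97 without replicate 1) in wild type and 0.95 ± 0.12 in humanized tissue (edgeR adjusted p = 0.00169 and 1.87e-05). Reads of Nnat and Blcap come from opposite strands, which the unstranded column does not separate, but in the stranded column 4 the differences in wild type were 1.46 and 1.33.

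Mest, Grb10 and Plagl1 fell in both genotypes. Mest, a paternally expressed hydrolase, stood at 488, 731, 550.5 and 672 CPM in wild type at E11.5 and at 76.9, 82.6, 67.4 and 65.5 CPM at E17.5. The humanized levels of Mest were 703, 591, 926 and 643 CPM and 69.3, 94.2, 80.7 and 83.4 CPM. Its stages were far apart in both genotypes, and it fell by 3.07 in wild type (standard error 0.19, edgeR adjusted p = 9.03e-07) and by 3.14 in humanized tissue (edgeR adjusted p = 8.74e-09). Grb10, an adaptor that dampens signaling from insulin and IGF receptors, was at 1270, 1507, 1191 and 1344 CPM in wild type at E11.5 and at 284, 202, 185 and 193 CPM at E17.5. In the humanized samples Grb10 was at 1661, 1404, 1619 and 1307 CPM and 196, 181, 199 and 174 CPM. Grb10 fell by 2.63 in wild type (standard error 0.19, edgeR adjusted p = 2.08e-06) and by 3.01 in humanized tissue (edgeR adjusted p = 1.22e-09), with no overlap of stages. Plagl1, a zinc finger transcription factor that regulates other imprinted genes, had 277, 232, 439 and 316 CPM in wild type and 189.8, 209, 220.3 and 353 CPM in humanized tissue at E11.5. At E17.5 the levels of Plagl1 were 53.1, 114, 98.1 and 120.3 CPM in wild type, lowest in replicate 1, and 82.8, 132, 122 and 119 CPM in humanized tissue. It fell by 1.73 in wild type and by 1.11 in humanized tissue (edgeR adjusted p = 0.000577 and 0.00043).

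Copg2 is a coatomer subunit whose gene ends against that of Mest on the other strand. In the unstranded column it had 159, 153, 163 and 153 CPM in wild type at E11.5 and 119.6, 144, 103 and 93.96 CPM at E17.5, and in humanized tissue 153, 144, 138 and 151 CPM and 126, 171, 102 and 149.6 CPM. Of all its reads with a strand, 79.5% came from the opposite strand. The stage difference in wild type was −0.46 ± 0.18 in the unstranded column (edgeR adjusted p = 0.0463) and −1.06 in the stranded column (edgeR adjusted p = 0.000175), and the first of these lost its call with the replicate number as a block (−0.47), with DESeq2 (−0.42) and without any one of 6 of the 8 replicates (−0.49 to −0.37). In humanized tissue the values were −0.11 and −0.92 (edgeR adjusted p = 0.527 and 5.05e-06), and the interaction did not pass (edgeR adjusted p = 0.466). Mest held 2.05 times as many counts in the stranded as in the unstranded column, and its difference in the stranded column was −2.95.

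Rasgrf1, a Ras exchange factor of neurons and alone in its domain, was near 0 at E11.5. It had 0.666, 0.212, 0.455 and 0.406 CPM in wild type and 0.146, 0.359, 0.207 and 0.492 CPM in humanized tissue at E11.5, where it was below the count filter. At E17.5 it had 26.6, 25.4, 21.6 and 29.0 CPM in wild type and 25.3, 20.4, 19.4 and 21.9 CPM in humanized tissue, and it rose in both (edgeR adjusted p = 4.03e-07 and 2.12e-09). It passed the filter only through E17.5, so that it had to differ, and its log2 fold changes of 5.85 and 6.09 rest on 3 to 13 counts per sample at E11.5 and are not exact. Nap1l5, a nucleosome assembly protein-like gene inside an intron of Herc3, was at 22.1, 11.9, 26.96 and 20.4 CPM in wild type and 9.05, 12.5, 10.3 and 20.1 CPM in humanized tissue at E11.5. Its E17.5 levels were 91.1, 218, 270.2 and 308 CPM in wild type and 178, 257, 251 and 270.2 CPM in humanized tissue, without overlap, and it rose by 3.43 ± 0.40 and 4.18 ± 0.26 (edgeR adjusted p = 3.96e-05 and 3.49e-08). Zdbf2, a zinc finger gene of chromosome 1, was at 88.3, 57.3, 95.3 and 74.6 CPM in wild type at E11.5 and at 182, 457, 316 and 375 CPM at E17.5. In humanized tissue Zdbf2 was at 40.7, 47.5, 76.4 and 69.3 and 324, 579, 318 and 461 CPM, and it rose by 2.06 ± 0.29 in wild type and 2.83 ± 0.26 in humanized tissue (edgeR adjusted p = 0.000158 and 7.79e-07). Inpp5f, a phosphatase with a paternally expressed isoform, had 155, 88.05, 156 and 133 CPM in wild type and 79.7, 103, 73.7 and 135 CPM in humanized tissue at E11.5. Inpp5f then had 298, 689.7, 694 and 749 CPM in wild type, lowest in replicate 1, and 720.3, 745, 654 and 679 CPM in humanized tissue, and it rose by 2.18 ± 0.31 and 2.82 ± 0.19 (edgeR adjusted p = 0.000169 and 6.76e-08). Impact, an inhibitor of the kinase Gcn2, ranged from 27.1 to 53.1 CPM at E11.5 and stood at 26.8, 95.9, 93.99 and 112 CPM at E17.5 in wild type. Its difference of 0.98 ± 0.39 did not pass with replicate 1 (edgeR adjusted p = 0.0517) and was 1.27 without it (edgeR adjusted p = 4.77e-05). With that replicate it did pass by DESeq2 (1.02, adjusted p = 0.0211), with DESeq2 size factors (1.04) and without a count filter (0.96), while in humanized tissue Impact rose by 1.45 ± 0.21 (edgeR adjusted p = 5.34e-05; interaction 0.575).

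For 3 further domains the members lie within or against one another. Peg13, a noncoding RNA in an intron of Trappc9, was at 127, 111, 100 and 99.2 CPM in wild type at E11.5 and at 529.5, 232, 231 and 218 CPM at E17.5. In humanized tissue Peg13 was at 119.9, 138, 85.3 and 101 CPM and 260.2, 214, 231 and 222 CPM. Replicate 1 of wild type held the highest level, and the rise of 1.46 ± 0.29 was 1.03 without it and 1.05 ± 0.14 in humanized tissue (edgeR adjusted p = 0.00168, 6.64e-06 and 2.56e-05). Trappc9, a subunit of a trafficking complex, had 34.8, 34.0, 25.9 and 29.1 CPM in wild type and 41.3, 39.9, 33.6 and 29.2 CPM in humanized tissue at E11.5. It had 84.8, 34.5, 35.3 and 29.97 CPM in wild type and 35.6, 26.3, 31.8 and 30.9 CPM in humanized tissue at E17.5, with overlap of the stages in both genotypes, and did not pass in either (edgeR adjusted p = 0.152 and 0.155), with 0.57 in wild type and 0.08 without replicate 1. In humanized tissue it did pass, as lower, without E11.5 replicate 4 (−0.32). Igf2r, the receptor that carries IGF2 to lysosomes, was at 188, 204, 169 and 186 CPM in wild type and 193, 167, 192 and 172 CPM in humanized tissue at E11.5. At E17.5 Igf2r was at 104, 106, 84.3 and 94.7 CPM and 103, 91.7, 90.7 and 91.4 CPM, and it fell by 0.95 in wild type and by 0.95 in humanized tissue (edgeR adjusted p = 0.000442 and 3.64e-06). Airn, the noncoding RNA antisense to Igf2r, was near the limit of detection, with 1.54, 1.38, 1.47 and 1.54 CPM and 0.575, 2.28, 1.59 and 2.28 CPM in wild type, and 1.02, 1.61, 2.17 and 2.01 CPM and 2.24, 3.15, 2.699 and 2.36 CPM in humanized tissue. It did not pass in wild type (edgeR adjusted p = 0.718) or in humanized tissue (edgeR adjusted p = 0.0557), where it did pass with DESeq2 size factors (0.68) and without E11.5 replicate 3 (0.70). Peg10, a gene derived from a retrotransposon, ranged from 407 to 505 CPM and from 478 to 631 CPM in wild type, and its difference passed in humanized tissue alone (0.56 ± 0.14, edgeR adjusted p = 0.00265; wild type 0.311; interaction 0.462). Sgce, the epsilon-sarcoglycan gene that shares its promoter region, ranged from 37.98 to 45.7 CPM and from 39.1 to 51.2 CPM and passed in neither genotype (edgeR adjusted p = 0.624 and 0.477).

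Gnas, which encodes the stimulatory G protein alpha subunit and several alternative products from overlapping promoters, gave different answers in the count columns. In the unstranded column it was at 14.97, 11.6, 11.3 and 12.7 CPM in wild type and 11.9, 14.1, 9.73 and 11.2 CPM in humanized tissue at E11.5, and at 108, 63.5, 63.1 and 67.9 CPM and 75.1, 58.5, 71.4 and 66.4 CPM at E17.5. The stranded column held 31.1 times as many counts, with 1033, 1166, 915 and 1044 CPM in wild type at E11.5 and 2210, 1158, 1356 and 1376 CPM at E17.5. In humanized tissue the stranded levels were 1192, 1134, 1089 and 1075 CPM and 1312, 1095, 1313 and 1208 CPM. Gnas rose by 2.57 ± 0.23 in wild type in the unstranded column and by 0.57 in the stranded one (edgeR adjusted p = 6.61e-06 and 0.0399). In humanized tissue the rise of 2.52 ± 0.14 in the unstranded column (edgeR adjusted p = 1.18e-08) stood against 0.14 in the stranded one, which did not pass (edgeR adjusted p = 0.221). Of the reads with a strand at Gnas, 0.338% were antisense. The libraries are stranded, with 96.03% to 96.5% of strand counts in column 4, and a read over genes on both strands counts for neither in the unstranded column, so that the stranded values of Gnas, Mest and Copg2 are the ones to rely on. Smaller excesses in the stranded column were found for Usp29 (1.68 times), Ube3a (1.51 times), Nnat (1.24 times), H19 (1.24 times) and Cdkn1c (1.20 times), whose stage differences there in wild type were 3.57, 1.63, 1.46, −1.72 and −1.49. Counted over the stranded column, 17 of 34 members were again higher and 8 lower in wild type, where 29.97% and 27.6% of the 18090 genes tested were.

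Levels of different genes are compared per kilobase of exon. By this measure Nnat was the highest member at both stages in wild type, with means of 457 and 1235 CPM per kb. At E11.5 it was followed by H19 (204), Grb10 (196), Cdkn1c (156) and Mest (91.7 CPM per kb). At E17.5 it was followed by Meg3 (269), Nap1l5 (120.4), Ndn (119.6) and Inpp5f (95.9 CPM per kb). H19, Grb10, Cdkn1c and Mest then stood at 61.7, 31.9, 58.2 and 10.99 CPM per kb. The mean of Cdkn1c is raised by wild type replicate 1, with 243 CPM against 72.5 to 86.3 CPM in the others. The lowest members at E17.5 were Igf2 (1.5), Kcnq1ot1 (0.662), Airn (0.238) and Phlda2 (0.0267 CPM per kb). In the stranded column Gnas ranked 6 at E11.5 and 3 at E17.5, with 93.5 and 137 CPM per kb, against ranks 30 and 28 in the unstranded column, and Mest ranked 4 and 18, with 186 and 23.7 CPM per kb, against ranks 5 and 24. H19 and Grb10 at E11.5, at 204 and 196 CPM per kb, did not differ beyond the spread of their replicates. Nap1l5 and Ndn at E17.5 overlapped only through wild type replicate 1, where Nap1l5 was low and Ndn high, and without it Nap1l5 was above Ndn. The order of Ndn over Inpp5f also rests on that replicate, with 706 CPM of Ndn and 298 CPM of Inpp5f. In every other wild type replicate of E17.5 Inpp5f was above Ndn per kb.

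The next comparison asked whether the humanized and wild type samples of one stage differed. No member passed at either stage. At E11.5, 33 members were tested and none was higher or lower by edgeR, where 0% of the 17816 genes tested were called in each direction; 3 members had an unadjusted p under 0.05 (1058 genes in all), and DESeq2 called 0 members and 2 genes, with 6 members at an unadjusted p under 0.05 (1213 genes in all). Those 3 by edgeR were Meg3 (−0.31 ± 0.11), Rian (−0.22 ± 0.08) and Nap1l5 (−0.67 ± 0.29), all lower in humanized tissue, with an adjusted p of 0.578 each. Meg3 in humanized tissue (278 to 346 CPM) overlapped wild type (323 to 418 CPM) at E11.5, as did Rian (326 to 396 against 382 to 406 CPM) and Nap1l5 (9.05 to 20.1 against 11.9 to 26.96 CPM). At E17.5, 34 members were tested and none was called by edgeR, where 0% of the 18763 genes tested were called in each direction. By edgeR or DESeq2, 0 members had an unadjusted p under 0.05 (207 genes by edgeR and 361 by DESeq2), and DESeq2 called 0 members and 1 gene. With the replicate number as a block edgeR called no gene either, with 717 genes at an unadjusted p under 0.05. Between samples of the same number, Igf2 and Rasgrf1 were lower in humanized tissue in every pair. Meg3, Peg3, Usp29, Zdbf2, Peg10 and Airn were higher in every pair, and no other tested member kept one direction. The share of all genes that keep a direction was not counted, and pair 1 holds the wild type library that stood apart. These directions are therefore not a result about the members. H19, Igf2 and Trappc9 had differences at E17.5 of −0.60 ± 0.31, −0.35 ± 0.19 and −0.58 ± 0.32 (edgeR adjusted p = 0.808 for each). Without wild type replicate 1 those of H19 and Trappc9 were −0.18 and −0.10, and that of Igf2 was −0.28. A test of whether the stage difference depended on genotype called no member by edgeR, where 0% of the 20234 genes tested were called in each direction. In that test 3 of 34 members had an unadjusted p under 0.05 by edgeR (1610 of the 20234 genes), H19 (−0.86 ± 0.36), Igf2 (−0.53 ± 0.21) and Trappc9 (−0.78 ± 0.37), each with an adjusted p of 0.462, and DESeq2 called none, with 4 members at an unadjusted p under 0.05 (2103 genes in all). Without wild type replicate 1 of E17.5 the interaction values of H19 and Trappc9 were −0.44 and −0.31.

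Other genes of imprinting and of the insulin-like growth factor (IGF) pathway were compared between the stages in wild type, against the same shares of all genes. Of 32 other imprinted genes, 30 matched a counted gene and 25 were tested, of which 12 were higher and 4 lower at E17.5. The largest rises were those of Slc22a2 and Slc22a3, organic cation transporters next to Igf2r (3.997 ± 0.83 and 3.91 ± 0.43), and of Calcr, the calcitonin receptor (3.9 ± 0.26). The steepest falls were those of Peg12, a retrogene of the Snrpn domain (−3.998 ± 0.21), Slc38a4, an amino acid transporter (−1.96 ± 0.31), and Mcts2, a retrogene in H13 (−0.60 ± 0.21), whose call was lost in 8 other settings, among them the replicate block (−0.63). Of 25 genes that lay down, keep or read imprints, 22 were tested, with 5 higher and 12 lower, and with 8 higher and 13 lower without wild type replicate 1, where the shares of all genes were 36.01% and 36.3%. Among those that rose were Zfp445 and Zfp57, zinc finger proteins that hold methylation at imprinting control regions (1.97 ± 0.41 and 1.39 ± 0.29), and Arid4a (1.68 ± 0.27). Among those that fell were Uhrf1, which brings the maintenance methyltransferase to newly copied DNA (−4.38 ± 0.29), the de novo methyltransferase Dnmt3b (−2.704 ± 0.19) and the H3K27 methyltransferase Ezh2 (−2.33 ± 0.23). Progenitor markers fell between the same stages, and their part in these differences was not tested. Of 14 genes of the IGF axis, all were tested, with 4 higher and 7 lower. The adaptor Irs4 rose by 6.403 ± 0.29, and the IGF-binding proteins Igfbp7 and Igfbp3 by 1.53 ± 0.27 and 1.12 ± 0.21. The Igf2 mRNA-binding proteins Igf2bp1, Igf2bp3 and Igf2bp2 differed by −5.32 ± 0.25, −3.63 ± 0.23 and −3.34 ± 0.17, all lower at E17.5, as were Igf2 and its receptor Igf2r.

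Promoter marks were read from the peak lists in windows of 1 kb on either side of every annotated start of a gene, and a mark was counted as present where a peak overlapped a window in every wild type list. Nearly all members carried H3K4me3, the mark of active and poised promoters: 32 of 35 at E11.5, where 79.7% of the 17739 genes that passed the count filter did, and 32 at E17.5, where 78% of 18670 genes did. H3K27ac, found at active promoters, was present at 27 members at E11.5 (64% of genes) and 32 at E17.5 (73.2%). The authors report that their H3K27ac antibody lot also recognized H2BK5ac, an acetylation of histone H2B, so peaks called H3K27ac here can include it. H3K27me3, the mark of Polycomb repression, was present at 11 members at E11.5 (22% of genes) and 11 at E17.5 (21.6%). These counts are over all 35 members, while the shares are over genes that passed the count filter, as 33 members did at E11.5 and 34 at E17.5; among those members H3K4me3 was at 30 and 31, H3K27ac at 27 and 32, and H3K27me3 at 9 and 10. Rian and Mirg, internal transcripts of the Meg3 polycistron, lacked H3K4me3 in at least one wild type list at each stage. The remaining gene without it, Ndn, lacked a promoter peak of any mark at its annotated starts (61995473 and 61996317 on chromosome 7). Inside the gene, however, every list of H3K4me3 held a peak, such as chr7:61997988-61999570 with a fold enrichment of 20.2 in wild type replicate 1 at E11.5, so that its promoter status depends on the annotated start. H3K27ac was in every wild type list at E17.5 but not at E11.5 for Igf2, Zim1, Nap1l5, Airn and Rasgrf1, and H19 and Phlda2 had no promoter H3K27ac in every wild type list at either stage.

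Some promoters differed between the genotypes in these presence calls, which no test backs, since they rest on 2 or 3 lists. At E11.5, H3K27me3 was in every list of humanized but not of wild type tissue at Rian, Mest, Nnat, Blcap and Igf2r, so that 16 members carried it in humanized tissue, where 24.5% of genes did (14 of the 33 that passed the filter). The wild type lists held 19166 and 13850 H3K27me3 peaks and the humanized lists 21295 and 16988, and per list 15 and 12 members in wild type and 16 and 17 in humanized tissue had a promoter peak. At E17.5 the same mark was at 11 members in both genotypes. H3K27ac was in every wild type but not every humanized list at Rian at E11.5 and at Igf2, Zim1 and Rasgrf1 at E17.5, where humanized replicate 3 had the fewest H3K27ac peaks (47132). Mirg carried H3K4me3 in every list at E11.5 in humanized tissue alone.

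Overlap of H3K4me3 and H3K27me3, the combination called bivalent at developmental genes, was counted where peaks of both marks shared at least 1 bp within a promoter window in every list. It was found at 10 members in wild type at E11.5, where 20.2% of genes had it, and at 8 members at E17.5, where 18.5% did; of the members that passed the filter, these were 8 of 33 and 7 of 34. The 10 at E11.5 were Igf2, Meg3, Dlk1, Cdkn1c, Phlda2, Grb10, Nap1l5, Gnas, Zdbf2 and Rasgrf1, and all but Meg3 and Nap1l5 had it at E17.5. In humanized tissue 12 members had it at E11.5, with Nnat and Blcap in addition, and 8 at E17.5, where 22.3% and 17.3% of genes had it (10 of 33 and 7 of 34 that passed the filter). At imprinted genes such overlap in bulk tissue can come from one copy with both marks, from marks on opposite copies or from a mixture of cells, and these cannot be told apart here. The longest shared stretches at E11.5 were those of Grb10 (chr11:11982702-11989088, 6387 bp), Zdbf2 (chr1:63311932-63315153, 3222 bp) and Dlk1 (chr12:109418710-109421866, 3157 bp). At E17.5 the stretch at Zdbf2 was 3999 bp (chr1:63311600-63315598), that at Rasgrf1 3070 bp (chr9:89790436-89793505, 2074 bp at E11.5), that at Dlk1 2211 bp and the longest at Grb10 2606 bp (chr11:11985459-11988064). Nap1l5 had a shared stretch of 824 bp (chr6:58883074-58883897) at E11.5 and had no H3K27me3 peak in any list at E17.5, when its RNA was higher. Meg3 kept peaks of both marks in its windows at E17.5, but they no longer shared a base in every list. Phlda2, with at most 0.146 CPM in any sample, had both marks over 1093 bp at E11.5 and 1149 bp at E17.5 and no H3K27ac.

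Members with both marks were spread over a wide range of RNA levels. At E11.5 the 10 members with both marks had a median of 8.62 CPM per kb (0.0415 to 196) and the 25 without had a median of 15.6 (0.21 to 457), and the ranges overlapped. In the stranded column those medians were 15.2 and 15.0, so that the difference depends on the count column. Grb10 and Cdkn1c carried both marks at E11.5 while they were among the most abundant members per length. Rasgrf1 carried both marks at both stages. A germline differentially methylated region lies at a promoter of 16 members and not of the other 19, as known from textbooks and reviews of imprinting. Both marks overlapped at 3 of the 16 and 7 of the 19 at E11.5, and at 2 and 6 at E17.5. The 3 at E11.5 were Grb10, Nap1l5 and Gnas, and at E17.5 Grb10 and Gnas. At the 19 members without such a region the overlap was found at Igf2, Meg3, Dlk1, Cdkn1c, Phlda2, Zdbf2 and Rasgrf1. Both were counted per gene over all its starts, so the overlap need not lie at the promoter that holds the region. At Gnas at E17.5, for example, the shared stretches (chr2:174125316-174125834 and chr2:174126074-174127446) lay only at its first start (chr2:174126022). These counts are a description of 35 genes and were not tested.

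**Figure D2:**
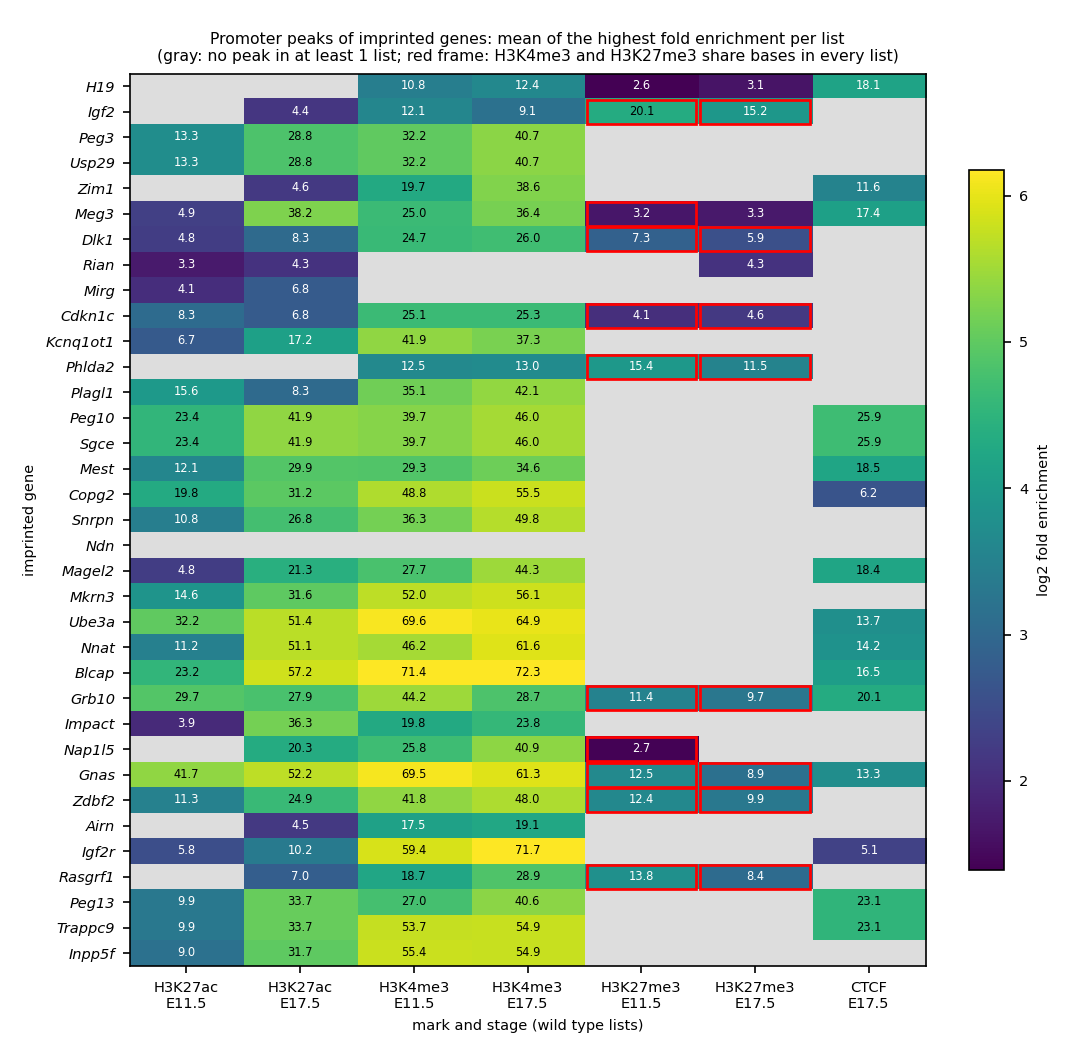
Imprinted genes (vertical axis) by mark and stage in wild type (horizontal axis), where color gives the log2 and the number the value of the fold enrichment of the highest promoter peak, as the mean over lists; gray cells lack a peak in at least 1 list, and red frames mark genes where H3K4me3 and H3K27me3 share bases in every list. Of the 35 genes, 32 have a colored H3K4me3 cell at each stage and 11 a colored H3K27me3 cell, and 10 are framed at E11.5 and 8 at E17.5.

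A count chosen after seeing the data compared the fold enrichment of the strongest promoter peak between the stages, as higher or lower in every wild type list of E17.5 than in every list of E11.5. For H3K27ac, 22 of 27 members with the mark at both stages were higher at E17.5, where 78.2% of 11205 genes were, and 1 was lower, where 3.28% of genes were. The mean over lists went from 3.91 to 36.3 at Impact, from 4.94 to 38.2 at Meg3 and from 11.2 to 51.1 at Nnat. Plagl1 was the one lower gene, with a mean that went from 15.6 to 8.303, and its RNA fell as well. H3K27ac was higher at Mest (from 12.1 to 29.9) and Igf2r (from 5.82 to 10.2), whose RNA also fell. For H3K4me3, 11 of 32 members were higher, where 34.1% of 14371 genes were, and 2 were lower, where 7.19% of genes were. Without any single list 14 to 17 members were higher, and the share of all genes moved as well, to between 39.9% and 46.4%; the largest gap was 53.1% of members against 46.4% of genes, without E11.5 list 2. The lower genes were Grb10 (from 44.2 to 28.7) and Igf2 (from 12.1 to 9.06), both of which fell in RNA, while Plagl1 (from 35.1 to 42.1) and Igf2r (from 59.4 to 71.7), which fell as well, were among the higher genes. Zim1 had the largest H3K4me3 difference among the higher genes (from 19.7 to 38.6). For H3K27me3, 1 of 10 members was higher, where 21.3% of 3326 genes were, and 5 were lower, where 46.9% of genes were. H19 was the higher gene (from 2.63 to 3.12), and by ratio Rasgrf1 had the largest decrease (from 13.8 to 8.42), followed by Gnas, Phlda2, Igf2 and Dlk1. The members' shares for H3K27ac and H3K4me3 thus lay near those of all genes, and fold enrichment also moves with the depth and quality of each library.

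CTCF peaks at E17.5 were looked for near the members in the wild type lists. A peak lay in a promoter window of 16 members in every wild type list, where 44.4% of 18670 genes had one, and within 5 kb of 30 members, where 76.6% of genes did (16 and 29 of the 34 that passed the filter). The humanized lists gave 16 and 29, where 39.3% and 73.7% of genes had one, the difference between the genotypes being a weak site in Impact (3.11 to 5.11 in fold enrichment in wild type). No site common to the 3 wild type lists lay within 5 kb of Dlk1, Kcnq1ot1, Ndn, Mkrn3 or Nap1l5. Gnas and Trappc9 had more sites than any other member, 11 each, and 5 each lay at Usp29, Meg3, Grb10 and Airn. The strongest, ranked by the weakest of the 3 lists, lay upstream of Cdkn1c, where chr7:143019772-143020689 had fold enrichments of 54.7, 52.0 and 46.2. At Plagl1, chr10:12962885-12963360 had 41.0, 41.1 and 38.8, and across the 5′ end of Blcap, mostly upstream of it, chr2:157413150-157414063 had 44.6, 38.3 and 49.6. In Trappc9 the site chr15:72894699-72895322 had 41.7, 38.2 and 36.3, and both promoter sites that it shares with Peg13 (chr15:72680837-72681390 and chr15:72681726-72682522) were occupied in every list. Next in this order were Usp29 (chr7:6943678-6944352, with 31.5 in the weakest list) and Inpp5f (chr7:128291865-128292416, with 29.7). Weaker sites included a second one at Cdkn1c (chr7:143017390-143018336) with 37.9, 24.8 and 33.7. Peg3 had a site 3030 bp into the gene (chr7:6729938-6731278) with 37.9, 31.5 and 21.5. Meg3 had one 2082 bp into the gene (chr12:109508575-109509142) with 39.4, 26.2 and 24.3. Peg10 and Sgce shared one at their common promoter region (chr6:4746743-4747537) with 26.6, 23.3 and 27.8.

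At the H19 locus, 3 sites were common to the wild type lists. One lay within the gene (chr7:142132845-142133182, fold enrichments 6.87, 11.2 and 6.84). The other two lay at the start and upstream of it (chr7:142133873-142134895 and chr7:142135151-142136051), in the known imprinting control region, and single peaks with fold enrichments of 28.3 and 10.2 covered both in replicates 1 and 2. In replicate 3 they were separate, with 14.7 and 16.9. Humanized lists held peaks at all 3 sites. Between the genes, each wild type list held a further CTCF peak that began at chr7:142164211, chr7:142163981 and chr7:142164197 in replicates 1 to 3, with 27.9, 23.3 and 30.8. Igf2 had 2 sites upstream of its nearest start, of which chr7:142225623-142226379 was the stronger, with 28.8, 24.7 and 28.2. H19 also carried H3K4me3 and H3K27me3 in its promoter windows at both stages, without shared bases in every list, and no H3K27ac. As at Ndn, these calls for H19, those of CTCF included, depend on the annotated starts.

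**Figure D3:**
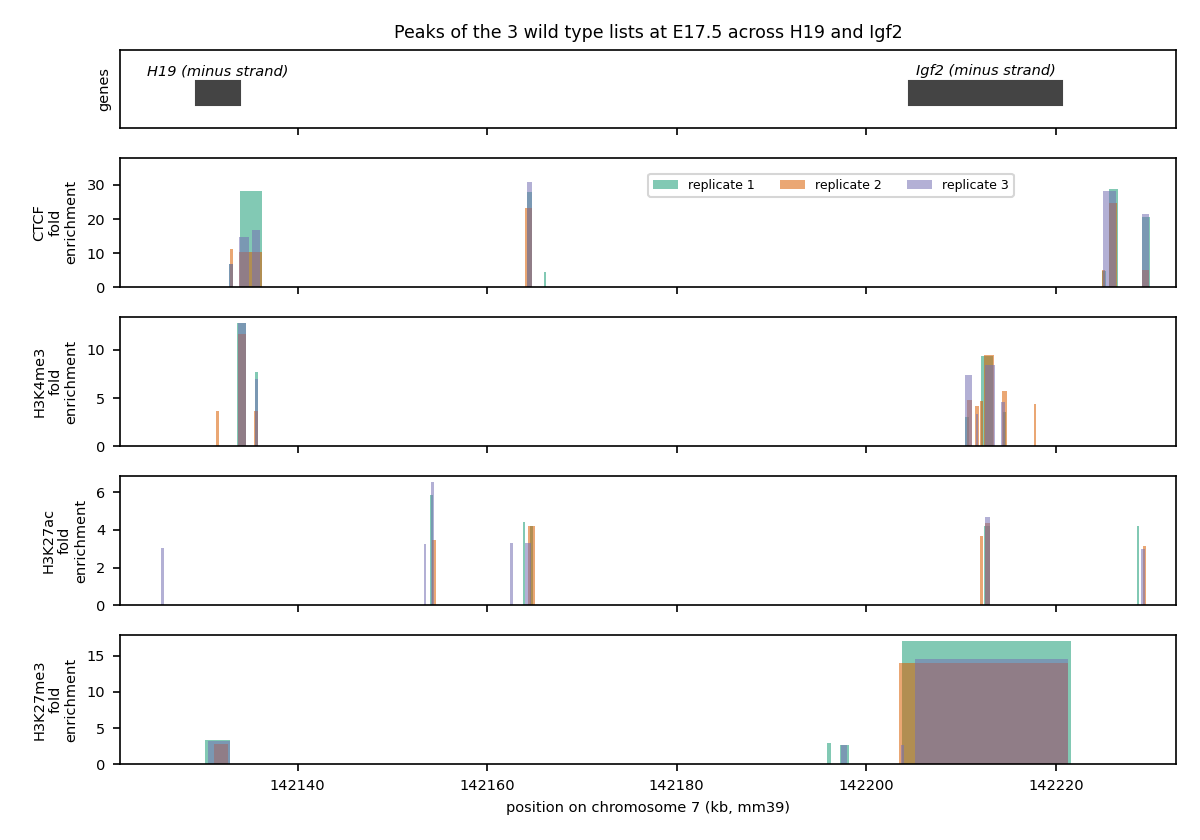
Peaks of CTCF, H3K27ac, H3K4me3 and H3K27me3 in the 3 wild type lists at E17.5 across H19 and Igf2, with the position on chromosome 7 in kb (mm39) on the horizontal axis and fold enrichment on the vertical axis of each panel; each bar spans one peak and each color is one replicate. CTCF peaks stand at and upstream of the H19 start, with fold enrichments up to 28.3, and upstream of Igf2, up to 28.8, while H3K27me3 covers the Igf2 promoters.

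The sequence under the CTCF sites was searched on both strands for GGNGGCAG, a core of the CTCF motif, in 300 bp around the middle of each site, which reach past the ends of narrower sites. It was found in 17.1% of the 52968 sites common to the 3 wild type lists and in 22 of the 86 separate sites within 5 kb of members (25.6%); with matches inside the site alone these were 16.4% and 21 of 86 (24.4%). Over their full length the 2 sites at the H19 control region held 5 matches, shown because this region governs Igf2 and H19, and the 2 sites of Cdkn1c held 1 each, shown because one of them was the strongest near any member. Each line gives 58 bases of mm39 from 5′ to 3′ on the strand named, with the match in capitals and 25 bases on either side. A match is a description of the sequence and not a measured contact, and the other sites without one were not examined further.
H19 at chr7:142134021-142134078 on the minus strand: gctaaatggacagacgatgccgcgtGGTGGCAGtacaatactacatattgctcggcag
H19 at chr7:142134476-142134533 on the minus strand: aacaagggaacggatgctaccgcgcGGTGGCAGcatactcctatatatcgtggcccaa
H19 at chr7:142135502-142135559 on the minus strand: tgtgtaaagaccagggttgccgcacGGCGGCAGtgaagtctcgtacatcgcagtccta
H19 at chr7:142135621-142135678 on the minus strand: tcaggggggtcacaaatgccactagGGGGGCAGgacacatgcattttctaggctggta
H19 at chr7:142135746-142135803 on the minus strand: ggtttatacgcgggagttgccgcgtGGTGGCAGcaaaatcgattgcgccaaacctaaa
Cdkn1c at chr7:143017790-143017847 on the minus strand: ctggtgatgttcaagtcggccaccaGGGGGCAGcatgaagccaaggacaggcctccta
Cdkn1c at chr7:143020208-143020265 on the minus strand: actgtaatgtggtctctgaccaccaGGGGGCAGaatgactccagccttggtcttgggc

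The windows of 500 bp on either side of 1 start of each gene were compared in base composition. Marks were read at every annotated start, so the start used need not be one that carries them. For Gnas it was chr2:174171890, and none of its shared stretches at E11.5 reached that window. The ratio of observed to expected CpG had a median of 0.742 in members and 0.683 in the 18668 tested genes with such a window, with a GC content of 56.5% and 57.1%. Members with both marks at E11.5 had a median ratio of 0.835 (0.519 to 1.07) and those without a median of 0.651 (0.170 to 0.940), and the ranges overlapped. Grb10 had the highest ratio, 1.07 with 149 CpG, followed by Zdbf2 with 0.981 and 121 CpG, and Ndn the lowest, 0.170 with 6 CpG at its annotated start. TGCCGC, the hexamer that ZFP57 binds when it is methylated, was present on either strand in 25 members (71.4%) and in 43.4% of the tested genes. Mest held 10 copies, Nnat 6, Nap1l5 and Trappc9 5 each, and Plagl1 and Inpp5f 4 each. Trappc9 and Peg13 share 1629 bp of promoter window, Peg3 and Usp29 1887 bp, Peg10 and Sgce 1902 bp, and Nnat and Blcap 501 bp, so that their marks and motifs are not independent. A hexamer match does not show that ZFP57 was bound.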

How the data were processed

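The authors aligned the RNA reads with STAR, counted them on GENCODE M31 and deposited a table of counts per gene for each sample, of which the unstranded column was used, with the stranded column 4 as an alternative. The RNA kit is stranded. The authors called peaks with MACS2 in each replicate and deposited lists in which column 7 is the fold enrichment over the local background, a ratio, and columns 8 and 9 are −log10 p and −log10 q. The settings of the broad H3K27me3 lists are not stated.

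Members were matched by symbol to GENCODE M39 genes on mm39. Counts were normalized by TMM, filtered by expression in edgeR and tested across all genes by its quasi-likelihood F test with Benjamini-Hochberg adjustment. The members and lists were chosen with earlier results of these data known. Values in every sample are given for members called in wild type between stages with a log2 fold change of at least 1 in size, for the highest level per length, for antisense or nested pairs and for members below the filter. At E17.5 the wild type and humanized samples of the same number correlated after the group means were removed (0.572, 0.635, 0.11 and 0.268 for replicates 1 to 4), so they were treated as paired in the replicate block. The fold enrichment comparison between stages was chosen after seeing the data. Versions were R 4.3.3, edgeR 4.0.16, DESeq2 1.42.0 and Python 3.11.15.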

Additional observations from a re-analysis of the deposited data

Results flagged for a closer look

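In 139 groups of 4 replicates, the gap between the most extreme value and its neighbor was compared with the range by a test under which chance flags about 1 in 20 groups, and 15 values stood apart, 10 of them in wild type replicate 1 of E17.5. In that library the levels were above the other 3 replicates for H19 (268.8 CPM against 101.4 to 123.9), Cdkn1c (242.9 CPM against 72.46 to 86.33), Ndn (706.3 CPM against 334 to 385.2), Nnat (3891 CPM against 1291 to 1579), Blcap (327.1 CPM against 154.5 to 162), Gnas (108.1 CPM against 63.09 to 67.91), Peg13 (529.5 CPM against 218.1 to 231.5) and Trappc9 (84.78 CPM against 29.97 to 35.33). They were below the others for Mirg (10.61 CPM against 22.94 to 24.08) and Inpp5f (298.5 CPM against 689.7 to 749.3).

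In humanized replicate 1 of E17.5, Igf2 was low (5.708 CPM against 7.028 to 7.281), Impact was low (70.1 CPM against 100.3 to 101.3) and Igf2r was high (103.2 CPM against 90.74 to 91.68). At E11.5, Rian was low in wild type replicate 4 (381.5 CPM against 402 to 405.9) and Magel2 was high in humanized replicate 1 (38.89 CPM against 30.66 to 31.39).

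The stranded count columns, which the unstranded tests did not use, held a different number of reads for some genes over the 16 samples. The stranded column had 31.06 times the unstranded counts for Gnas, 2.053 times for Mest, 1.678 times for Usp29 and 1.506 times for Ube3a. Of the reads with a strand, 9.571% were antisense to Ube3a and 79.46% to Copg2.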

How the results depend on the processing

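All 246 values of the main counts under other settings stayed within 1.5 times, and no setting called a member between the genotypes. Of the other values 20 gained a call, 22 lost one, 2 changed sign and 7, all counts, moved by over 1.5 times, and the cause was not tested. Log2 fold changes that kept sign and call also moved by over 1.5 times, among them Nnat between stages in wild type (1.43 to 0.88) and H19 between genotypes at E17.5 (−0.60 to −0.18) without wild type replicate 1 of E17.5, and Gnas (2.57 to 0.57) and Copg2 (−0.46 to −1.06) in the stranded column. Without single replicates the stage difference of Airn in wild type ran from −0.00919 to 0.45, the lowest without E17.5 replicate 4, and that of Copg2 in humanized tissue from −0.23 to 0.0145, the highest without E17.5 replicate 3. With the replicate number as a block, the wild type stage differences of Copg2 (−0.47) and Mcts2 (−0.63) lost their calls, and the block changed no call at E17.5. Samples of the same number in the other groups were not treated as paired, though single correlations reached 0.45 and 0.413. For replicates 1 to 4 they were 0.0554, 0.214, 0.0314 and 0.0977 between the genotypes at E11.5. Between the stages they were 0.0297, −0.602, 0.45 and 0.0961 in wild type, and 0.413, −0.277, 0.027 and 0.122 in humanized tissue. Imprint maintenance genes called higher went from 5 to 8 without wild type replicate 1 of E17.5. Members with higher H3K4me3 fold enrichment went from 11 to 17 without E11.5 wild type list 2. Members with lower H3K27ac went from 1 to 2 without E11.5 list 2 and to 3 without E17.5 list 3, those with lower H3K4me3 from 2 to 4 without E17.5 list 2, and those with higher H3K27me3 from 1 to 2 without E11.5 list 1 or E17.5 list 2.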
